A study of Mus musculus with 40 samples.

Results

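The Mediator complex carries signals from transcription factors to RNA polymerase II, and its CDK8 kinase module is the part that binds and leaves the core complex reversibly. It is built from a kinase (CDK8 or its paralogue CDK19), Cyclin C, which the kinase needs for activity, MED12 (or MED12L), which activates the Cyclin C-bound kinase, and MED13 (or MED13L), which links the module to core Mediator. In vertebrates every subunit but Cyclin C is thus encoded by a pair of paralogues. The module phosphorylates transcription factors and polymerase-associated proteins, and while it is bound it keeps polymerase from joining core Mediator.

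The 7 genes of the module (*Ccnc*, *Cdk8*, *Cdk19*, *Med12*, *Med12l*, *Med13* and *Med13l*) were taken by name from the 55536 genes counted, and all of them passed the expression filter in both multiplexes. The cells were mouse embryonic stem cells (mESCs), grown on gelatin in medium with serum and LIF: WT cells in 2 biological replicates, 3 clones lacking *Ccnc* (D1, G2, H5, called *Ccnc* KO) and 3 clones lacking *Cdk8* (B9, C8, H4, called *Cdk8* KO). Each line was kept for 4 h in DMSO or in 900 nM AZD6738, which inhibits the kinase ATR (ATRi). Polyadenylated RNA was sequenced by a method that keeps the strand. One multiplex, a pool sequenced together, held WT and *Ccnc* KO libraries and the other *Cdk8* KO libraries with the same WT libraries sequenced again, so that both comparisons with WT share their controls. The 20 libraries, with each WT library counted once per sequencing run, held between 30899823 and 67274049 counted reads. The knockouts were made by transfecting a guide RNA into mESCs that express Cas9, and each line is 1 single-cell clone. Whether the WT libraries came from cells that express Cas9 was not given in the sources used here. The 2 WT replicates are described as biological. The main tests treat each library as a separate observation, without a term for the clone, so their p-values measure the spread between libraries. The DMSO and ATRi libraries of a line count as independent there, and a block for the clone was run as an alternative.

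The guides are shown because they set where Cas9 cuts each gene, and the protospacer-adjacent motif (PAM) that Cas9 needs is in capitals. The edits that each clone carries were not examined here.

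*Ccnc* guide: ctaaagcgatcatgaacggaGGG
*Cdk8* guide: aatatttcactgtcgacaagAGG

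The *Ccnc* guide lies at chr4:21743292-21743314 of GRCm38, on the minus strand, within exon 9 of 12 of the transcript with the longest coding sequence. It cuts after 581 of 849 coding bases (68.4%), and 6 of the 8 annotated *Ccnc* transcripts hold the site. The *Cdk8* guide lies at chr5:146292673-146292695 on the plus strand, in exon 7 of 13, and cuts after 712 of 1392 coding bases (51.1%). Of the 9 annotated *Cdk8* transcripts, 4 hold that site. The sequence around each site, on the strand of the gene with the target in capitals, comes from the GENCODE M21 transcripts.

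*Ccnc* target: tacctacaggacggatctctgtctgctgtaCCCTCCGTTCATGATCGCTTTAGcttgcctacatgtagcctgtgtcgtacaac
*Cdk8* target: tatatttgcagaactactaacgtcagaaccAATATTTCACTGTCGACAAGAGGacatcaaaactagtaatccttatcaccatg

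*Cdk19* is the other kinase that Cyclin C can bind, so the stretch of its transcripts closest to the *Cdk8* guide is also shown, with bases that differ from the guide in capitals.

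*Cdk19* stretch: CatTtttcactgtcgTcaGg

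It differs from the guide at 4 of the 20 positions, counted from 1 at the 5′ end of the guide (A1C, A4T, A16T and A19G), and is followed by an AGG PAM. The 7 genes lie on 6 chromosomes. *Ccnc* is at chr4:21727701-21759922, *Cdk8* at chr5:146231230-146302874, *Cdk19* at chr10:40339564-40483818, *Med12* at chrX:101274030-101297465, *Med12l* at chr3:59005825-59318682 and *Med13l* at chr5:118560679-118765438, all on the plus strand. *Med13* is at chr11:86267033-86357602 on the minus strand. Counts cover all exons of a gene, so they do not tell an edited transcript from an intact one. No 50-base stretch was shared between paralogues, so their reads can be told apart. A predicted gene on the same strand, Gm21986, overlaps 749 bases of *Med12* exons, and 8.84% of the 50-base stretches of *Med12* and 5.31% of those of *Cdk8* occur in other transcripts, which leaves part of these counts uncertain.

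Levels are given as CPM, a gene's reads scaled to the same library total after TMM normalization. In WT cells under DMSO, and per kilobase of all annotated exons, the levels in the *Ccnc* multiplex were 8.54 and 8.53 CPM per kb for *Ccnc* (replicates 1 and 2), 7.67 and 7.35 for *Cdk8*, 6.86 and 7.86 for *Med12*, 6.10 and 6.85 for *Med13* and 5.91 and 7.39 for *Med13l*. *Cdk19* followed at 2.24 and 2.47, and *Med12l* was far below all others at 0.137 and 0.165. The replicates of *Cdk8*, *Med12* and *Med13l* overlapped each other and those of *Med13* lay within the range of *Med13l*, whereas *Ccnc*, *Cdk19* and *Med12l* overlapped with no other gene. The order depends on the length used. Per kilobase of the longest transcript *Cdk8* led at 19.3 and 18.5 CPM per kb, followed by *Ccnc* at 12.5 and 12.5 and *Med13l* at 9.81 and 12.3, since *Cdk8* has 9832 bases in the union of its exons but 3896 in its longest transcript. *Cdk19* and *Med12l* came last by both measures.

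The WT replicates differed more under ATRi than under DMSO: the difference in log2 level between them had an SD over genes of 0.579 under ATRi against 0.456 under DMSO in the *Ccnc* multiplex, and of 0.614 against 0.477 in the *Cdk8* multiplex. These values do not tell which replicate deviates. The study left out WT replicate 2 under ATRi because it deviated in a principal component analysis. The tests below leave it out as well, which leaves 3 WT and 6 KO libraries in a multiplex with 1 WT library under ATRi that is assumed to vary like the other groups. Ranges given for WT are those of the 3 WT libraries tested, and for levels and shares of module genes and marker sums WT replicate 2 under ATRi is given where it lies outside them.

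Embryonic stem cell identity was checked with markers. All 8 pluripotency markers examined were detected, with summed levels between 4303 and 4680 CPM in WT and between 3759 and 4320 CPM in *Ccnc* KO libraries, and between 4206 and 4589 CPM in WT and between 3202 and 4167 CPM in *Cdk8* KO libraries. WT replicate 2 under ATRi was at 4257 and 4188 CPM. Of these markers 4 of 8 were called lower in *Ccnc* KO and 2 of 8 in *Cdk8* KO cells by edgeR and none higher. Over all genes 12.3% and 4.31% were called in either direction. The median log2 fold changes of the 8 were -0.24 and -0.28. DESeq2 called 6 of 8 in each, beside 2636 (*Ccnc* KO) and 1733 (*Cdk8* KO) genes over all. In *Ccnc* KO cells the 6 included *Dppa5a*, with a positive edgeR estimate (log2 fold change 0.24). Of 7 fibroblast markers, *Col3a1*, *Dcn*, *Lum* and *Postn* were under 1 CPM in every library tested. The summed level of all 7 was between 4.29 and 5.12 CPM in WT against 6.48 to 11.1 CPM in *Ccnc* KO libraries, and between 3.89 and 5.38 CPM in WT (5.56 CPM in WT replicate 2 under ATRi) against 7.20 to 23.1 CPM in *Cdk8* KO libraries, the highest being clone H4. *Col1a1* (log2 fold changes of 0.93 and 1.98), *Col1a2* (1.35 and 2.51) and *Thy1* (0.59 and 0.59) had positive estimates in both knockouts. By edgeR 3 of the 7 were tested in *Ccnc* KO and 5 of the 7 in *Cdk8* KO cells, all with positive estimates, and the rest were not tested. No tested fibroblast marker was called by edgeR. In each knockout 3 of those tested had an unadjusted p under 0.05, beside 26.7% and 21.3% of all genes. In *Ccnc* KO cells these were *Col1a1*, *Col1a2* and *Thy1*. In *Cdk8* KO cells they were *Col1a1*, *Col1a2* and *Col3a1* (log2 fold change 4.55, at under 1 CPM), and *Thy1* had an unadjusted p of 0.126 by edgeR. DESeq2 called *Thy1* in *Ccnc* KO and *Col1a2* in *Cdk8* KO cells. The summed level of 12 primitive endoderm markers, genes of an early extra-embryonic lineage, was between 368 and 412 CPM in WT against 678 to 872 CPM in *Ccnc* KO libraries. In the *Cdk8* multiplex it was 374 to 411 CPM in WT against 844 to 1190 CPM in *Cdk8* KO libraries. By edgeR 10 and 12 of the 12 were called higher, beside calls for 12.3% and 4.31% of all genes. WT replicate 2 under ATRi was at 466 and 452 CPM, below all KO libraries. Pluripotency and primitive endoderm markers therefore moved with genotype, as did some module genes below, and in bulk RNA fewer cells of a type and less RNA per cell cannot be told apart. Their part in the results on the module was not tested.

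**Figure D1:**
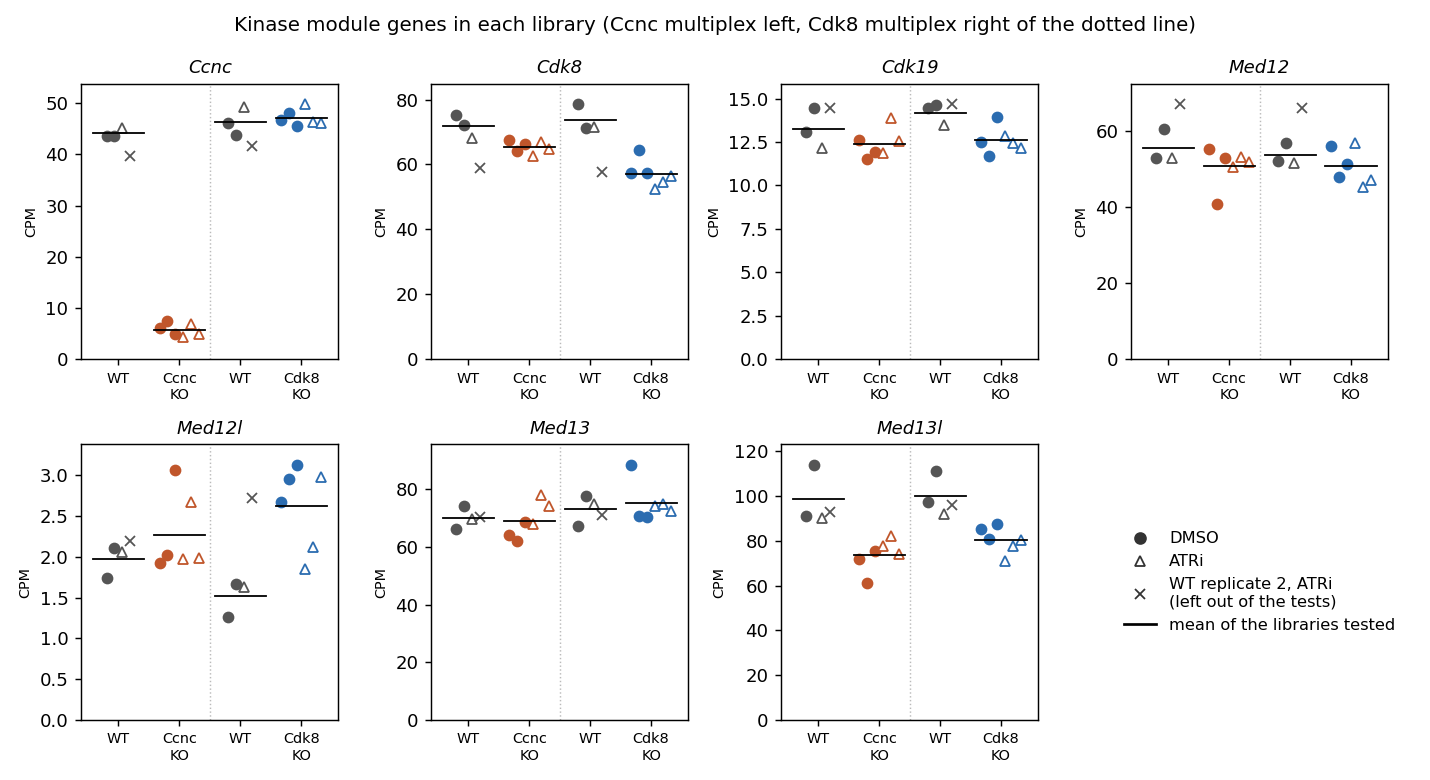
Level (CPM) of each module gene in each library, by genotype and multiplex, with circles for DMSO, triangles for ATRi, crosses for WT replicate 2 under ATRi and lines for the mean of the libraries tested. *Ccnc* lay between 4.24 and 7.40 CPM in *Ccnc* KO libraries, *Cdk8* lay between 52.3 and 64.5 CPM in *Cdk8* KO libraries, and *Med13l* was below WT in both knockouts.

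Each knockout was tested against WT with treatment as a covariate, to ask how the module's own transcripts differ when Cyclin C or CDK8 is lost. In *Ccnc* KO cells *Ccnc* itself was 7.61-fold lower and *Med13l* fell by 25.5%, and the other 5 genes were not called. In *Cdk8* KO cells *Cdk8* fell by 21.7% and *Med13l* fell by 18.2%, and the other 5 were not called. A call here is an adjusted p under 0.05 (Benjamini-Hochberg) in the quasi-likelihood test of edgeR, fitted and adjusted over all genes tested. Thus 2 of 7 genes were called in each knockout, where the calls over all genes made up 12.3% of 18577 (*Ccnc* KO) and 4.31% of 18721 (*Cdk8* KO). In each knockout the 2 include the targeted gene itself, and *Med13l* was the only call among the other 6. With a fold of 2 required in addition, *Ccnc* in *Ccnc* KO cells was the only call among the 7 genes, beside 1.94% of all genes there and 1.05% in *Cdk8* KO cells. The median log2 fold change of the 6 genes other than the targeted one was -0.11 with *Ccnc* lost and -0.03 with *Cdk8* lost, where the medians over all genes were 0.00325 and 0.00858. The groups did not overlap for 3 of the 7 genes when *Ccnc* was lost (*Ccnc*, *Cdk8* and *Med13l*) and for 3 when *Cdk8* was lost (*Cdk8*, *Med12l* and *Med13l*), beside 14.5% and 12.7% of all genes. These counts also include the targeted gene. With WT replicate 2 under ATRi included, *Ccnc* and *Med13l* in *Ccnc* KO and *Med13l* in *Cdk8* KO cells still did not overlap with WT.

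**Figure D2:**
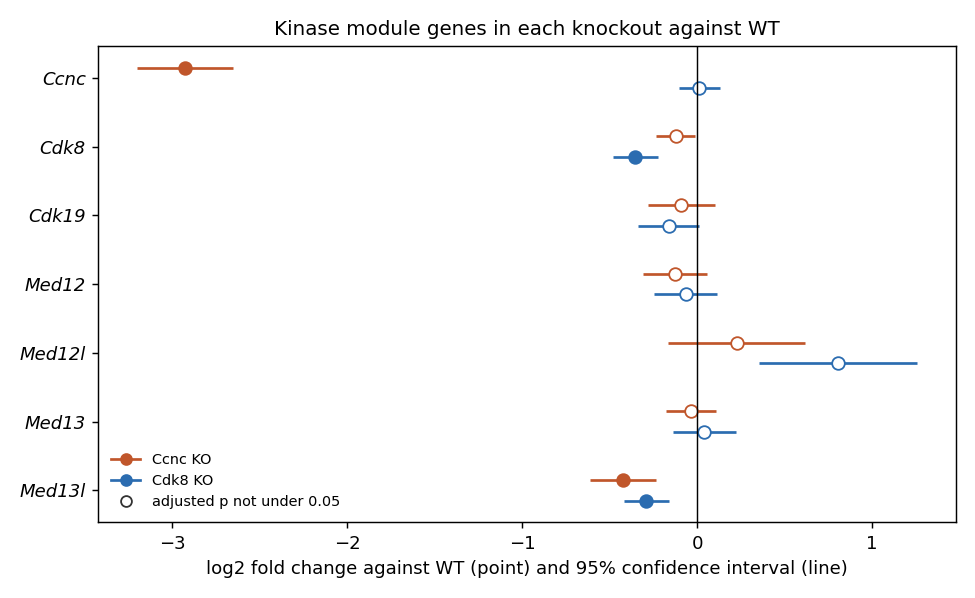
Log2 fold change of each module gene against WT in *Ccnc* KO and *Cdk8* KO cells, with its 95% confidence interval as a line and open points where the adjusted p was not under 0.05. *Ccnc* in *Ccnc* KO cells stands at -2.93, and *Med13l* is the gene called below WT in both knockouts, at -0.42 and -0.29.

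*Ccnc* encodes Cyclin C. In the *Ccnc* multiplex it had 43.7 and 43.6 CPM in WT cells under DMSO (2029 and 1699 reads) and 45.1 CPM in WT replicate 1 under ATRi, with 39.6 CPM in replicate 2. The *Ccnc* KO clones D1, G2 and H5 had 6.14, 7.40 and 4.94 CPM under DMSO and 4.24, 6.83 and 4.87 CPM under ATRi, between 151 and 294 reads. Every KO library was thus far below every WT library, and clone G2 was the highest of the clones under both treatments. Its log2 fold change was -2.93 (SE 0.13, adjusted p = 1.14e-08 by edgeR). Under DMSO the clones kept 14.2% (D1), 17.05% (G2) and 11.4% (H5) of the WT level.

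*Ccnc* in the *Cdk8* multiplex had 46.2 and 43.8 CPM in WT cells under DMSO, and 49.2 and 41.7 CPM under ATRi. *Cdk8* KO clones B9, H4 and C8 had 46.6, 45.5 and 48.1 CPM under DMSO and 49.8, 46.2 and 46.3 CPM under ATRi. The groups overlapped. The difference was 0.01 on the log2 scale, with an adjusted p of 0.920 by edgeR and a 95% interval that ran from -7.01% to 9.48% of the WT level. *Ccnc* was the only gene of the 7 called between the knockouts, with a log2 difference of 2.96 (SE 0.16) of *Cdk8* KO over *Ccnc* KO cells (adjusted p = 4.27e-09, edgeR over 18 libraries with a term for the multiplex). It was also the only gene called among all 18349 tested, 0.00545% of them, and 2.85% had an unadjusted p under 0.05 by edgeR. The absence of further calls does not show that the knockouts are otherwise alike. The WT libraries enter that model once per multiplex as if they were separate libraries. In knockout libraries alone *Ccnc* was again the only gene of the 7 called.

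*Cdk8* encodes the kinase after which the module is named. *Cdk8* levels in the *Cdk8* multiplex were 78.6 and 71.2 CPM in WT cells under DMSO, and 71.5 CPM in replicate 1 and 57.7 CPM in replicate 2 under ATRi. The *Cdk8* KO clones B9, H4 and C8 had 57.5, 57.3 and 64.5 CPM under DMSO and 52.3, 56.3 and 54.5 CPM under ATRi. All 6 KO libraries were below the 3 WT libraries tested, but WT replicate 2 under ATRi lay within their range. The targeted transcript was thus present in every *Cdk8* KO clone, at 76.9% (B9), 76.6% (H4) and 86.3% (C8) of the WT level under DMSO. The log2 fold change was -0.35 (SE 0.06, adjusted p = 0.0112 by edgeR), and the study tested loss of the protein by western blot. With all WT libraries the adjusted p was 0.0374, and with the clone as a block it was 0.0488. In DMSO libraries alone *Cdk8* was not called (log2 fold change -0.33, adjusted p = 0.235), nor without WT replicate 1 (-0.27, adjusted p = 0.491), and the adjusted p over all alternatives ranged from 7.41e-06 to 0.491.

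In *Ccnc* KO cells *Cdk8* was at 67.6, 64.3 and 66.3 CPM (D1, G2 and H5) under DMSO and at 62.6, 66.8 and 64.8 CPM under ATRi, against 75.4 and 72.3 CPM in WT under DMSO and 68.2 CPM in WT replicate 1 under ATRi. Every KO library was below these 3 WT libraries and above WT replicate 2 under ATRi, at 59.0 CPM. The log2 fold change of -0.12 (SE 0.05, 95% interval from -0.24 to -0.01) did not pass the adjustment (adjusted p = 0.150 by edgeR). Between the knockouts *Cdk8* differed by -0.24 (SE 0.07), with an unadjusted p of 0.00349 in the model and an adjusted p of 0.998 by edgeR.

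*Cdk19*, the paralogue of *Cdk8*, was not called in either knockout. In the *Cdk8* multiplex it had 14.5 and 14.6 CPM in WT cells under DMSO and 13.5 CPM in WT replicate 1 under ATRi, with 14.7 CPM in replicate 2, while *Cdk8* KO libraries lay between 11.7 and 13.9 CPM. The groups overlapped, with 5 of the 6 KO libraries below these 3 WT libraries. The log2 fold change was -0.16 (SE 0.08, adjusted p = 0.271 by edgeR), and its 95% interval from -0.34 to 0.01 had a rise of 0.917% as its upper end. In *Ccnc* KO cells it was at 11.5 to 13.9 CPM against 12.2 to 14.5 CPM in WT (log2 fold change -0.09, SE 0.09, adjusted p = 0.562). Per kilobase of exon, *Cdk19* made up between 23.6% and 25.7% of the summed level of *Cdk8* and *Cdk19* in WT and between 23.4% and 29.2% in *Cdk8* KO libraries. In the *Ccnc* multiplex the share was between 22.6% and 25.2% in WT and between 23.2% and 25.9% in KO libraries. These shares overlapped between the groups of each multiplex, and in WT replicate 2 under ATRi the share was above every other library, at 29.99% in the *Cdk8* and 29.2% in the *Ccnc* multiplex.

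*Med12* activates the kinase through Cyclin C. It was not called in either knockout. In the *Ccnc* multiplex WT libraries lay between 52.8 and 60.6 CPM, and KO libraries between 40.7 CPM (clone G2 under DMSO) and 55.1 CPM (clone D1 under DMSO). In the *Cdk8* multiplex WT libraries lay between 51.5 and 56.9 CPM and KO libraries between 45.2 and 56.8 CPM. WT replicate 2 under ATRi was the highest library of both multiplexes, at 67.1 and 66.0 CPM. The groups overlapped. The log2 fold changes were -0.12 (SE 0.09, adjusted p = 0.3796) and -0.07 (SE 0.08, adjusted p = 0.690) by edgeR.

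*Med12l* was the lowest gene of the module, with 55 to 153 reads in a library. In the *Cdk8* multiplex it had 1.26 and 1.67 CPM in WT cells under DMSO and 1.63 CPM in WT replicate 1 under ATRi. The *Cdk8* KO clones B9, H4 and C8 had 2.68, 3.13 and 2.96 CPM under DMSO and 1.85, 2.98 and 2.12 CPM under ATRi. All KO libraries were above the 3 WT libraries tested, but WT replicate 2 under ATRi, at 2.72 CPM, was higher than 3 of the 6. The log2 fold change of 0.80 (SE 0.20, 95% interval from 0.35 to 1.25) missed the threshold with an adjusted p of 0.0548 by edgeR. It passed with DESeq2 (adjusted p = 0.00882), without the expression filter (0.0329) and without clone B9 (0.0346), and not in the other 8 of the 11 alternatives, whose adjusted p reached 0.517. The same WT libraries gave 1.74, 2.105 and 2.06 CPM (2.19 CPM in replicate 2 under ATRi) in the *Ccnc* multiplex, and the log2 ratio of a WT library between its own 2 sequencing runs ranged from -0.46 to 0.30 for *Med12l* against -0.09 to 0.14 for the other 6 genes.

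In *Ccnc* KO cells *Med12l* was between 1.93 and 3.06 CPM, and overlapped with WT. Its log2 fold change was 0.23 (SE 0.18, adjusted p = 0.469 by edgeR). The difference between the knockouts was 0.56 (SE 0.27, 95% interval from -0.01 to 1.14, adjusted p = 0.998). Per kilobase of exon *Med12l* was a small part of the *Med12* pair everywhere, between 1.43% and 1.88% of the summed level in WT and between 1.92% and 3.66% in KO libraries of the *Cdk8* multiplex, and between 1.95% and 2.30% in WT and between 2.07% and 3.38% in KO libraries of the *Ccnc* multiplex. WT replicate 2 under ATRi, at 2.43% in the *Cdk8* multiplex, lay within the range of the KO libraries there, and it was at 1.94% in the *Ccnc* multiplex.

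**Figure D3:**
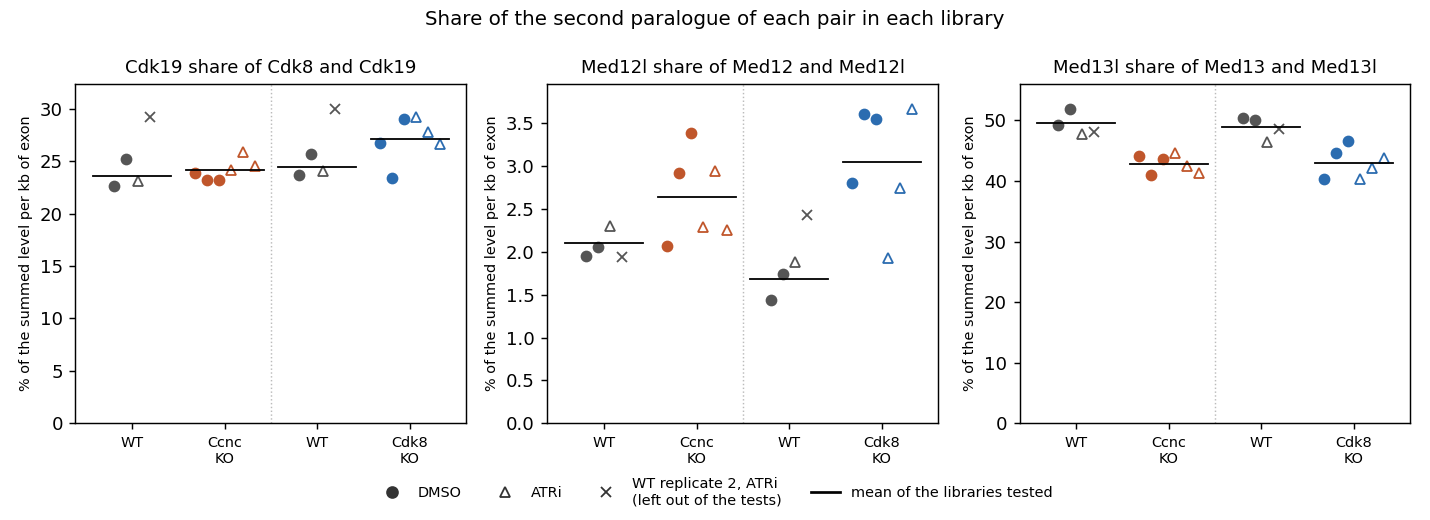
Share (%) of *Cdk19*, *Med12l* and *Med13l* in the summed level per kilobase of exon of each paralogue pair, for each library, with symbols as in the plot of levels by library. The *Med13l* share was 46.4% or more in every WT library tested, and at most 44.5% in *Ccnc* KO and 46.5% in *Cdk8* KO libraries.

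*Med13* and *Med13l* encode the subunits that join the module to core Mediator. In the *Ccnc* multiplex *Med13* had 66.2 and 74.3 CPM in WT cells under DMSO and 69.5 CPM in WT replicate 1 under ATRi, and between 62.0 and 78.1 CPM in *Ccnc* KO libraries. In the *Cdk8* multiplex it had 67.4 to 77.7 CPM in WT and 70.5 to 88.5 CPM in KO libraries, the highest being clone B9 under DMSO. The groups overlapped in both. The log2 fold changes were -0.04 (SE 0.07, adjusted p = 0.783) for *Ccnc* KO and 0.04 (SE 0.08, adjusted p = 0.812) for *Cdk8* KO by edgeR.

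*Med13l* was lower in every KO library than in every WT library of both multiplexes. In the *Ccnc* multiplex it had 91.2 and 114 CPM in WT cells under DMSO and 90.3 and 92.8 CPM under ATRi. *Ccnc* KO clones D1, G2 and H5 had 72.0, 61.2 and 75.3 CPM under DMSO and 77.6, 82.2 and 74.3 CPM under ATRi. The WT replicate 2 under DMSO was the highest and clone G2 under DMSO the lowest. *Med13l* fell by 0.42 on the log2 scale (SE 0.09, adjusted p = 0.00569 by edgeR), and the gene was called in all 11 alternatives, with adjusted p between 1.37e-08 and 0.0361. The size of the difference depended on the WT replicate kept: the log2 fold change was -0.71 without WT replicate 1 and -0.30 without WT replicate 2.

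*Med13l* in the *Cdk8* multiplex had 97.4 and 111 CPM in WT cells under DMSO and 92.1 and 95.8 CPM under ATRi. *Cdk8* KO clones B9, H4 and C8 had 85.2, 87.4 and 81.0 CPM under DMSO and 71.0, 80.5 and 77.9 CPM under ATRi. *Med13l* fell by 0.29 on the log2 scale (SE 0.06, adjusted p = 0.0252 by edgeR). This call was less stable: it was lost with the clone as a block (adjusted p = 0.0924), in DMSO libraries alone (0.233) and without clone C8 (0.102), WT replicate 1 (0.343) or WT replicate 2 (0.101), within a range of 0.000912 to 0.343 over the 11 alternatives, all with a negative fold change. The 2 comparisons use the same WT libraries, so the values of *Med13l* are not independent of each other. Between the knockouts *Med13l* differed by 0.09 on the log2 scale (SE 0.12, 95% interval from -0.17 to 0.35, adjusted p = 0.998). Per kilobase of exon *Med13l* made up between 47.7% and 51.9% of the summed level of *Med13* and *Med13l* in WT and between 40.9% and 44.5% in *Ccnc* KO libraries. In the *Cdk8* multiplex its share was between 46.4% and 50.4% in WT and between 40.2% and 46.5% in KO libraries, so that the ranges overlapped at their ends.

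The response of the module to ATRi was tested with genotype as a covariate. None of the 7 genes was called in either multiplex by edgeR, beside 1.11% of 18577 genes in the *Ccnc* multiplex and 0.0855% of 18721 genes in the *Cdk8* multiplex. DESeq2 also called 0 of the 7 genes, beside 653 and 381 genes over all. By edgeR 0 of them in the *Ccnc* multiplex and 1 (*Med13l*) in the *Cdk8* multiplex had an unadjusted p under 0.05, beside 16.2% and 11.5% of all genes. The log2 fold changes lay between -0.10 (*Ccnc*) and 0.12 (*Med13*) in the *Ccnc* multiplex and between -0.19 (*Med12l*) and 0.05 (*Ccnc*) in the *Cdk8* multiplex. With the clone as a block, so that each line under ATRi was compared with itself under DMSO, *Cdk8* (log2 fold change -0.14, SE 0.04, adjusted p = 0.0408) and *Med13l* (-0.13, SE 0.04, adjusted p = 0.0439) were called in the *Cdk8* multiplex, where 11.3% of all genes were called in that fit. For *Cdk8* the log2 ratio of ATRi to DMSO was -0.14 in clone B9, -0.24 in C8, -0.02 in H4 and -0.14 in WT replicate 1. For *Med13l* it was -0.26, -0.06, -0.12 and -0.08 in the same order. Both genes were thus lower in each of these 4 lines, and also in WT replicate 2, at -0.30 and -0.21.

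In the *Ccnc* multiplex the same 2 genes gave no call with the block. *Cdk8* differed by -0.11 in clone D1, 0.06 in G2, -0.03 in H5 and -0.14 in WT replicate 1, and *Med13l* by 0.11, 0.43, -0.02 and -0.01. Clone G2 stood above the other clones and WT replicate 1 for *Cdk8*, and also for *Cdk19*, *Med12*, *Med12l*, *Med13* and *Med13l*, with log2 ratios between 0.26 and 0.43. The residual *Ccnc* transcript fell by 0.53 on the log2 scale in clone D1 and by 0.12 and 0.02 in G2 and H5.

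**Figure D4:**
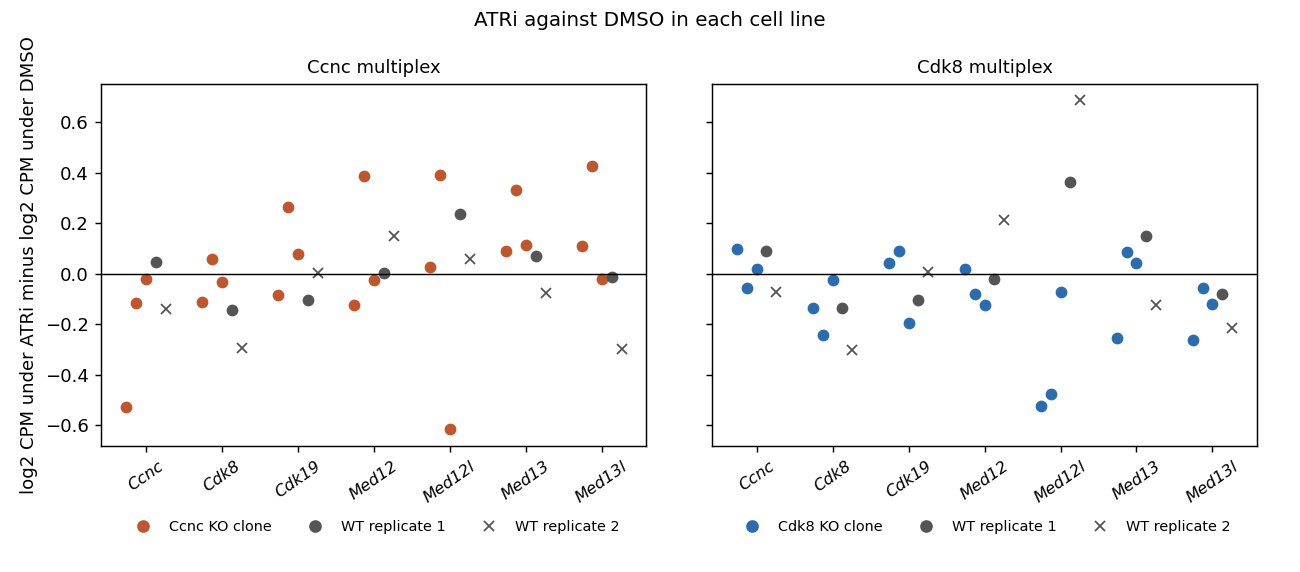
Difference in log2 CPM between ATRi and DMSO for each module gene in each cell line, with KO clones and WT replicate 1 as circles and WT replicate 2 as crosses, by multiplex. *Cdk8* and *Med13l* lie below 0 in all lines of the *Cdk8* multiplex, and the points of *Med12l* spread widest.

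Whether a knockout changes the response to ATRi was tested as an interaction of genotype and treatment. None of the 7 genes was called in either multiplex by edgeR, nor was any gene at all (0% of all genes in both), and none of the 7 had an unadjusted p under 0.05. Over all genes 395 (2.13%) in the *Ccnc* and 255 (1.36%) in the *Cdk8* multiplex had an unadjusted p under 0.05 by edgeR, and DESeq2 called 0 genes in both. The estimates of the 7 genes ranged from -0.26 (*Ccnc*) to 0.33 (*Med13l*) in the *Ccnc* multiplex and from -0.50 (*Med12l*) to 0.09 (*Cdk19*) in the *Cdk8* multiplex, with a smallest unadjusted p of 0.0679 and 0.240 in these models. With 1 WT library under ATRi the intervals are wide, such as -0.03 to 0.70 for *Med13l* in the *Ccnc* multiplex.

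The module was set beside other genes of the transcription machinery. None of the 26 core Mediator genes was called in either knockout by edgeR, with log2 fold changes between -0.16 and 0.21 (median 0.02) in *Ccnc* KO and between -0.20 and 0.11 (median -0.04) in *Cdk8* KO cells, and 3 and 4 of them had an unadjusted p under 0.05. Over all genes 12.3% and 4.31% were called, and 26.7% and 21.3% had an unadjusted p under 0.05 by edgeR. DESeq2 called 1 core Mediator gene in *Ccnc* KO cells, *Med7*, and 0 in *Cdk8* KO cells, beside 2636 and 1733 genes over all. Of 12 genes for the other transcription kinases and their cyclins, *Cdk12*, which with Cyclin K phosphorylates polymerase during elongation, was called in *Ccnc* KO cells (log2 fold change -0.22, SE 0.07, adjusted p = 0.0492 by edgeR), at 161 to 214 CPM against 200 to 235 CPM in the WT libraries tested. That call held in 5 of 11 alternatives, with adjusted p between 0.00652 and 0.223, and was lost with the clone as a block (0.0613), in DMSO libraries alone (0.180), without clone G2 (0.129), without clone H5 (0.0864) and without WT replicate 1 (0.0934, with a log2 fold change of -0.38) or 2 (0.223, with -0.15). In *Cdk8* KO cells its log2 fold change was -0.31 (SE 0.10, adjusted p = 0.114), past the threshold in 3 of 11 alternatives (adjusted p from 0.0316 to 0.517). None of the 12 genes was called there by edgeR, where 3 had an unadjusted p under 0.05, beside 21.3% of all genes. DESeq2 called *Ccnt2*, a cyclin of CDK9, in both knockouts, where edgeR gave log2 fold changes of -0.18 (*Ccnc* KO, adjusted p = 0.0607) and -0.13 (*Cdk8* KO, adjusted p = 0.0713). *Med7* and *Ccnt2* are named after their values were seen. Under ATRi none of the 26 core Mediator or the 12 kinase genes was called in either multiplex by edgeR or DESeq2, with 0 and 2 core Mediator and 4 and 3 kinase genes at an unadjusted p under 0.05. Over all genes 16.2% (*Ccnc* multiplex) and 11.5% (*Cdk8* multiplex) had an unadjusted p under 0.05 by edgeR.

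The genes whose levels followed each module gene most closely were sought with Pearson correlations of log2 CPM over the 9 libraries tested in each multiplex, averaged over both multiplexes and given as a description, since both multiplexes hold the same WT libraries and the points share genotype and sequencing run. Over the 18130 genes tested in both, *Med13l* was followed most closely by *Abca2* (mean r = 0.942), *Itpr3* (0.941) and *Celsr2* (0.932), and *Cdk8* by *Msi1* (0.93), *Stk38* (0.928) and *Exoc6* (0.916). For *Med12* these were *Mga* (0.896), *Lyst* (0.872) and Gm12263 (0.852), for *Med12l* they were *Ulk4* (0.864), *Gfpt1* (0.857) and *Zfp113* (0.849), and for *Med13* they were *Akap11* (0.85), *Vps13c* (0.842) and *Usp9x* (0.841). For *Cdk19* they were Dnaja1-ps (0.848), *Frs2* (0.846) and *Nr1h2* (0.845). *Ccnc* had the least alike neighbours of the 7 genes, Tdg-ps (0.735), *Zfp799* (0.718) and *Rnd2* (0.715). No module gene was among the 3 closest of another.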

How the data were processed

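RNA-seq counts of 20 libraries of mESCs (40 lane columns, 2 lanes per library) were used. The authors trimmed single-end reads with Trimmomatic 0.38, aligned them to GRCm38.p6 with HISAT2 2.1.0, and deposited raw counts per gene and lane from featureCounts 2.0.1, set to the reverse strand and to ignore reads marked as duplicates. Duplicate removal of this kind lowers high counts most where it was in effect. The rlog tables, which the authors made with DESeq2, were not used here. All 55536 gene IDs were found in GENCODE M21, and no column was left without a sample.

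Lanes were summed. Library totals had a median of 41972557 reads. Counts of a multiplex were tested together by edgeR 4.0.16, run under R 4.3.3 (quasi-likelihood test, TMM, filterByExpr by genotype and treatment), without WT replicate 2 under ATRi as in the study. P-values were adjusted by the Benjamini-Hochberg method over all genes tested, and a gene was called at an adjusted p under 0.05. The genotype effect had treatment as covariate and the ATRi effect genotype. A model over 18 libraries with a term for the multiplex compared the knockouts. Each WT library enters it once per multiplex although it is the same library. A prior count of 2 was used for log2 CPM. Intervals are 95% intervals of the fit. The edgeR test was tried on simulated data for the genotype, ATRi and interaction effects in the *Ccnc* multiplex. It was also tried for the genotype effect in the *Cdk8* multiplex and for the comparison of the knockouts. DESeq2, limma and the fixed block for the clone were not tried in this way. Alternatives were other size factors (RLE), DESeq2 1.42.0, no filter, all WT libraries, DMSO libraries alone, a block for the clone (fixed in edgeR for ATRi, random with limma 3.58.1 for genotype), knockout libraries alone and leaving out each clone or WT replicate.

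A clone's DMSO and ATRi libraries were made from the same cell line and are therefore paired. Across genes, their deviations from the group means correlated by 0.177 (D1), 0.0205 (G2), 0.184 (H5), 0.554 (B9), 0.178 (C8) and 0.627 (H4).

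The module genes and the lists (core Mediator, transcription kinases, markers) were chosen with earlier results of these data known. All 7 module genes are named, with the 5 called genes of smallest adjusted p of the first 2 lists for each genotype comparison, and the 3 genes most correlated with each module gene over the 9 libraries tested in each multiplex. Guide sequences come from the study's methods. No protein sequence is shown.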

Additional observations from a re-analysis of the deposited data

Results flagged for a closer look

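*Ccnc* was the only module gene whose level differed between the knockouts by a test of the difference itself. It was higher in *Cdk8* KO than in *Ccnc* KO cells by 2.96 on the log2 scale (SE 0.16, adjusted p = 4.27e-09 by edgeR), and every *Cdk8* KO library was above every *Ccnc* KO library. *Ccnc* is the gene targeted in one of the groups. No interaction of genotype and ATRi was called for any module gene, and no module gene moved in opposite directions under ATRi in all clones of the 2 knockouts. Groups of at most 3 libraries were too small for a test of single outlying libraries.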

How the results depend on the processing

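Calls in *Ccnc* KO against WT (*Ccnc* and *Med13l*), in *Cdk8* KO against *Ccnc* KO (*Ccnc*), and the absence of calls for the interaction and for ATRi in the *Ccnc* multiplex stood under every alternative run. In *Cdk8* KO against WT, 2 genes were called in the main test, 0 in DMSO libraries alone, 1 (*Cdk8*) with the replicate block as a random effect, and between 0 and 3 when a clone or WT replicate was left out: 0 without WT replicate 1, 1 without WT replicate 2 or clone C8, and 3 without B9. DMSO libraries alone hold fewer samples. For ATRi in the *Cdk8* multiplex the count rose from 0 to 2 (*Cdk8* and *Med13l*) with the replicate block. Apart from this and the loss of *Med13l* in *Cdk8* KO against WT, the block changed no call of a module gene. The interaction could not be fitted without WT replicate 1.

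Directions that turned belonged to genes that were not called in the main tests. Leaving out 1 clone or WT replicate gave ranges of -0.192 to 0.0239 for *Med13* in *Ccnc* KO, -0.0177 to 0.0804 for *Ccnc* and -0.0360 to 0.0815 for *Med13* in *Cdk8* KO cells. Under ATRi in the *Ccnc* multiplex such ranges were -0.0711 to 0.0966 (*Cdk19*), -0.0824 to 0.0756 (*Med12*), -0.167 to 0.184 (*Med12l*) and -0.0455 to 0.174 (*Med13l*), and in the *Cdk8* multiplex -0.0536 to 0.0569 (*Med13*). Between the knockouts they were -0.0433 to 0.101 (*Med12*) and -0.0101 to 0.0892 (*Med13*). With all WT libraries, *Med12l* under ATRi was at 0.00185 in the *Ccnc* and 0.00402 in the *Cdk8* multiplex, and *Med12* there at 0.00675. With the replicate block *Med13* under ATRi was at 0.00262 in the *Cdk8* multiplex. In knockout libraries alone, *Cdk19* differed by 0.0187 and *Med12* by -0.00505. For the interaction, directions turned for *Med12* and *Med12l* in the *Ccnc* multiplex, and for *Ccnc*, *Cdk8*, *Med12*, *Med13* and *Med13l* in the *Cdk8* multiplex. There *Med12* kept its direction in 5 of 9 alternatives, and *Cdk8* and *Med13l* each in 6 of 9. Per kilobase of the longest transcript instead of all exons, the shares in WT cells under DMSO in the *Ccnc* multiplex moved from 23.9% to 11.1% (*Cdk19*), from 2.00% to 2.09% (*Med12l*) and from 50.5% to 62.3% (*Med13l*). The cause of the other changes was not tested. *Med12l*, with 55 to 153 reads a library, is the gene whose values depth limits most.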
